A study of Mus musculus with 13 samples.

Results

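The genes described here encode the ADAM proteins (a disintegrin and metalloprotease), their secreted relatives the ADAMTS proteases (ADAM with thrombospondin motifs), and the ADAMTS-like proteins. They are the rows of the expression table whose symbol is Adam, Adamts or Adamtsl followed by a digit. There were 58 such genes among 30479 in the table. By known site of action they were divided into 21 sperm ADAMs, which encode proteins of the testis and sperm surface, 13 somatic ADAMs, 19 ADAMTS proteases and 5 ADAMTS-like proteins. RNA was measured in mice of 3 genotypes at the Wfdc15a locus, wild type (WT), heterozygous (Het) and knockout (KO), all at postnatal day 25. Wfdc15a encodes a protein of the WAP four-disulfide core family, which includes protease inhibitors. Whole testis without its tunica gave 2 WT, 1 Het and 3 KO libraries from about 2 ng of RNA each. Round spermatids, the haploid cells formed by meiosis, were sorted after a DNA stain and gave 2 WT, 2 Het and 3 KO libraries of 100 to 200 cells. The strain and the altered allele are not given in the labels used here, nor whether each library is a separate animal. The p-values therefore reflect the spread among these libraries alone, which could be technical.

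ADAM proteins are membrane proteins with a prodomain, a metalloprotease domain, a disintegrin domain and a cytoplasmic tail. Somatic members such as ADAM10 and ADAM17 cut growth factors, Notch receptors and cytokines from cell surfaces. Many sperm ADAMs lack an active protease site, or lose the protease domain as sperm mature. On sperm they form complexes, such as the fertilin pair of ADAM1 and ADAM2, that are needed for the sperm to enter the oviduct and to bind the egg coat. ADAMTS proteases are secreted and cut matrix proteins such as versican, aggrecan and procollagen, while ADAMTS-like proteins share their outer domains but have no protease domain.

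Library totals ran from 7375270 to 20927428 reads, at which 3 reads correspond to 0.143 to 0.407 reads-per-million (RPM). That floor covers counting error only, and reads of this protocol carry no molecular identifiers. Wfdc15a itself was at 207 to 267 RPM in the 4 WT libraries, 48.4 to 71.5 RPM in the 3 Het libraries and 36.8 to 116 RPM in the 6 KO libraries, so its level separated WT from the rest but not KO from Het. In both cell types the WT libraries and KO replicate 1 (set 1) stood apart from the Het libraries and KO replicates 2 and 3 (set 2) on the first principal component. The sets come from the data, not from the labels, and their origin was not tested. Several lists of markers of supporting cells followed them. The 6 Sertoli markers summed to 11.5 to 28.9 RPM in set 1 testis libraries, where 4 of them reached 1 RPM, and to 1434 to 1562 RPM in set 2, where all 6 did. In round spermatid libraries the 5 stromal markers summed to 5.495 to 12.7 RPM in set 1, with 1 of 5 reaching 1 RPM, and to 309.9 to 564 RPM in set 2, with 5 of 5. There the endothelial markers overlapped between the sets, at 1.43 to 4.21 RPM in set 1 and 1.29 to 3.93 RPM in set 2. The macrophage markers also overlapped there, at 5.26 to 15.7 RPM and 10.1 to 16.9 RPM. Of 6 round spermatid markers, Acrv1 and Spaca1 were higher in WT round spermatids than in WT testis, while Prm1, Prm2, Tnp1 and Tnp2 were each higher in both WT testis libraries than in either WT sorted one.

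Of the 58 genes, 37 reached a mean of 5 RPM in at least 1 of the 6 groups: all 21 sperm ADAMs, 8 of 13 somatic ADAMs, 7 of 19 ADAMTS genes and 1 of 5 ADAMTS-like genes. Adam33 and Adamts13 did not reach 1 RPM in any library. Testing in the fit of all 13 libraries required 1 RPM in no fewer than 2 of them, which 53 genes met, and left out Adam7, Adam8, Adam33, Adamts8 and Adamts13.

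Several sperm ADAM genes are close copies that lie side by side. Adam24, Adam25, Adam20 and Adam39 follow each other on the plus strand of chromosome 8 (chr8:40675077-40682199, chr8:40752208-40756176, chr8:40793273-40797303 and chr8:40822990-40827037, mm10), and Adam26b, Adam26a, Adam34l and Adam34 on its minus strand, from 43519762 to 43710049. The RefSeq promoter table (GRCm38.p6, the same assembly as mm10) held 32 of the 58 genes and 11 of the 21 sperm ADAMs. The 250 bases before the start of Adam20 and of Adam25 are shown because these neighbouring genes, both higher in WT round spermatids, have almost the same promoter, and those of Adam29 because it lies alone elsewhere on chromosome 8 and was also higher in WT round spermatids. Capitals mark CCAAT boxes on either strand and, in Adam29, the adjoining TATAAA.
Adam20 promoter, chr8:40793023-40793272, plus strand: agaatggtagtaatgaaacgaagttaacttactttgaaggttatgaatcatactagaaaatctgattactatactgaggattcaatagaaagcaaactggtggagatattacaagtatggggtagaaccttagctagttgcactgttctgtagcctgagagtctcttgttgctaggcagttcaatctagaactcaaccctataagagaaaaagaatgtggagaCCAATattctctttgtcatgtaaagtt
Adam25 promoter, chr8:40751958-40752207, plus strand: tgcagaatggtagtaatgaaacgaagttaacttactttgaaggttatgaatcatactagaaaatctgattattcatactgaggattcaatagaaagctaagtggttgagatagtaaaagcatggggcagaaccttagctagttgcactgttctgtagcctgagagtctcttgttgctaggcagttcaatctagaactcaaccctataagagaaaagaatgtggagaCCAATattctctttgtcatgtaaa
Adam29 promoter, chr8:55906965-55907214, minus strand: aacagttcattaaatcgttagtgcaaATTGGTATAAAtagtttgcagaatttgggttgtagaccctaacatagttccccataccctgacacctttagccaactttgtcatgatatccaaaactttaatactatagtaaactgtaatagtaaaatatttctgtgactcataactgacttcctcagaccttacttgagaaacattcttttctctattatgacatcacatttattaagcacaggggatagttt

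The Adam20 and Adam25 sequences aligned over 246 bases, of which 238 (96.7%) were identical. Adam29 aligned with Adam20 over 7 bases. The following 4 motifs were searched on both strands in windows of the 250 bases before each start, and compared with all 27025 genes in the table. A gene counted if the window of any of its starts held a match. The cyclic AMP response element TGACGTCA, bound by CREM in spermatids, was in 0 of 11 sperm ADAM genes and in 1.77% of all genes. CCAAT was in 7 of 11 (37.5% of all), TATAAA in 3 of 11 (14.3% of all) and the E-box CACGTG in 1 of 11 (6.86% of all). The TATAAA matches were in Adam29, Adam6a and Adam6b. These are matches of letters within the window and no test of binding.

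Levels of different genes were compared per kb of exon. In round spermatids the 20 sperm ADAMs with a GENCODE length filled the first 20 places, and every other gene lay below them by median. Adam5 led with a median of 937 RPM per kb (range 698 to 1153) over the 7 round spermatid libraries. Adam3, which encodes cyritestin, a protein needed for sperm to enter the oviduct, followed at 741 RPM per kb (range 568 to 824). Adam2, the beta subunit of fertilin, was at 534 RPM per kb (range 204 to 634), and Adam32 at 453 RPM per kb (range 379 to 553). The ranges of these neighbours overlapped across libraries. Within each of the 7 round spermatid libraries Adam5 was above Adam3, and Adam3 was above both Adam2 and Adam32. Adam2 was above Adam32 in 4 libraries, those of set 2, and below it in the 3 of set 1 (204 and 219 against 417 and 379 RPM per kb in WT and 371 against 456 in KO replicate 1), so the order of these 2 genes turned with the set. Adam18 was at 120.1 RPM per kb (range 54.7 to 164), below all 4 in each range. Adam1b, the fertilin alpha gene of the sperm surface, came next at 40.3 RPM per kb (range 19.2 to 52.4), and Adam4 was last of the sperm ADAMs at 5.78 RPM per kb (range 4.42 to 9.52). Adam9 was the highest gene outside the sperm ADAMs by median at 1.31 RPM per kb (range 0 to 2.16), and its range lay wholly below that of Adam4. The order by median did not hold in every library. In KO replicate 3 Adamts5 was at 3.81 RPM per kb and the sperm ADAM Adam21 at 2.49 RPM per kb.

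**Figure D1:**
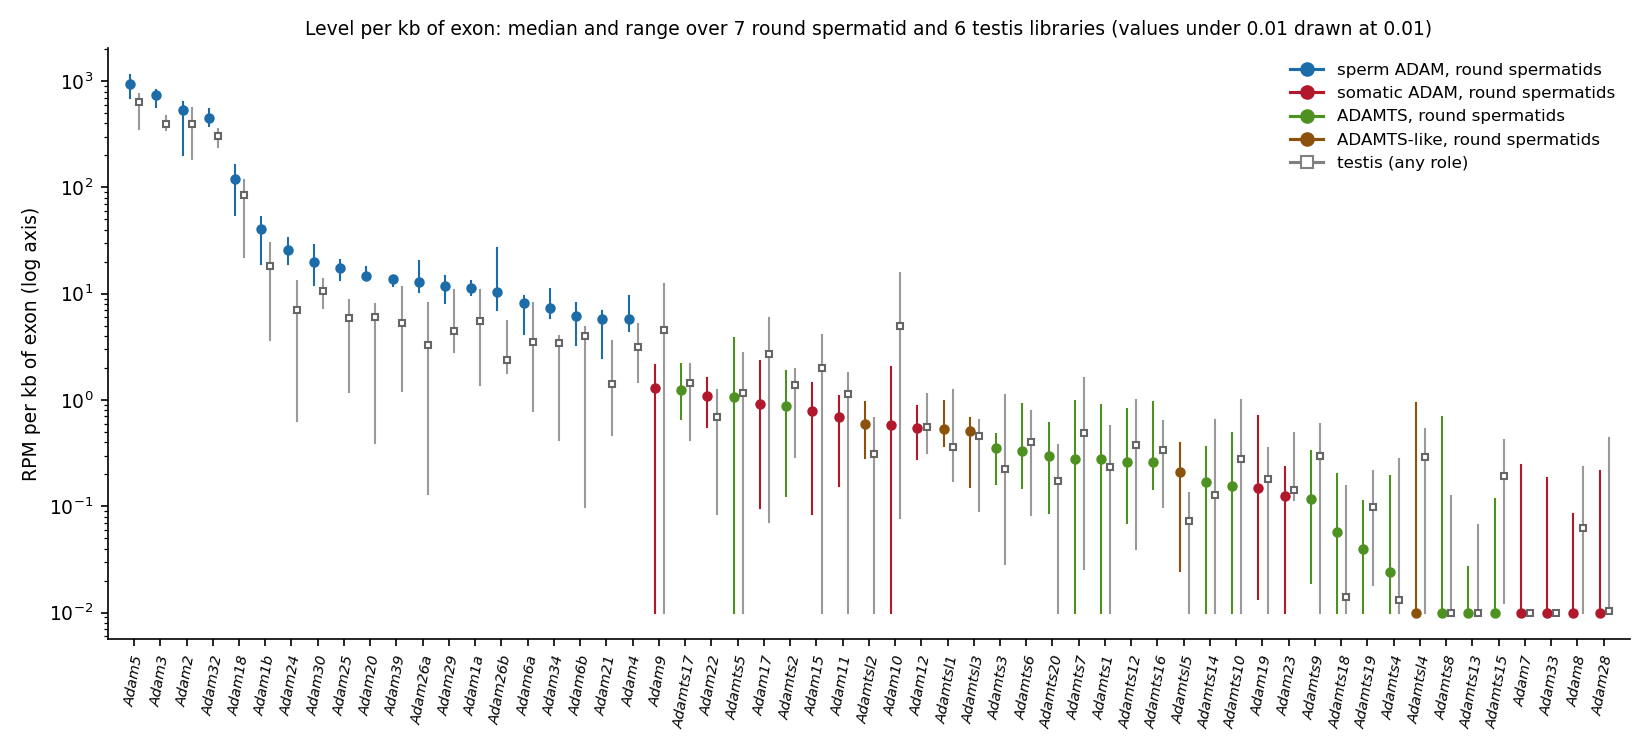
Level of each of 57 genes in RPM per kb of exon (log axis), ordered by median in round spermatids. Filled circles and coloured lines give the median and range over the 7 round spermatid libraries, open squares and grey lines those over the 6 testis libraries. The 20 sperm ADAMs stand to the left, above every somatic ADAM, ADAMTS and ADAMTS-like gene by their round spermatid median.

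Adam2, Adam3, Adam5, Adam18 and Adam32 together took 90.8% to 97.8% of all sperm ADAM reads in a library. The share was highest in the WT testis libraries (97.8% and 97.7%) and lowest in WT round spermatids (90.8% and 91.1%). The 21 sperm ADAMs summed to 3787 to 6749 RPM in testis and 6316 to 10389 RPM in round spermatids. The 13 somatic ADAMs summed to 11.3 to 241 RPM and 22.5 to 74.3 RPM.

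Round spermatids were first compared with whole testis in WT mice, which asks which genes are enriched in the sorted haploid cells. Of 21 sperm ADAMs, 11 were higher in round spermatids (limma, Benjamini-Hochberg adjusted p under 0.05 over 20085 genes) and 0 were lower. Among all genes tested, 9.09% were higher and 2.39% lower. None of the 10 somatic ADAMs, 17 ADAMTS or 5 ADAMTS-like genes tested passed, and 12 of the 53 genes (22.6%) were at an unadjusted p under 0.05, beside 24.6% of all genes. The median difference was 1.90 on the log2(RPM + 1) scale for sperm ADAMs, 0.20 for somatic ADAMs, -0.11 for ADAMTS and 0.31 for ADAMTS-like genes, beside 0.20 over all genes. With each library centred on its median, the sperm ADAM median was 1.55, while those of somatic ADAMs and ADAMTS-like genes changed sign, to -0.15 and -0.04. This scale understates the change of low genes. In bulk samples, fewer cells of a type and less RNA per cell cannot be told apart.

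The testases are ADAMs made in late germ cells, some of which keep a protease site, and their genes had 4 of the 5 largest differences. In testis Adam24, which encodes testase 1, was at 1.84 and 4.05 RPM for WT, 37.7 for Het and 15.3, 28.95 and 25.6 for KO. The round spermatid values were 66.4 and 54.98 RPM for WT, 74.5 and 76.9 for Het and 71.2, 96.8 and 78.7 for KO. All 7 round spermatid values lay above all 6 testis values, and the WT testis libraries were the lowest. The WT difference was 4.02 (SE 0.41, limma adjusted p = 0.000479).

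Adam25, testase 2, was at 3.15 and 3.61 RPM for WT, 22.9 for Het and 22.6, 18.2 and 12.9 for KO in testis. The round spermatid values were 49.01 and 45.7 RPM for WT, 50.5 and 54.96 for Het and 43.8, 43.2 and 35.3 for KO, again above every testis value. Its WT difference was 3.47 (SE 0.38, limma adjusted p = 0.000558). Adam20, a testis ADAM next to it on chromosome 8, was at 1.03 and 5.38 RPM for WT, 20.6 for Het and 19.8, 16.9 and 14.2 for KO in testis. Its round spermatid values were 39.4 and 35.7 RPM for WT, 38.03 and 40.2 for Het and 34.8, 45.8 and 37.4 for KO, and the WT difference was 3.42 (SE 0.51, limma adjusted p = 0.00202). Adam39 was at 4.77 and 3.23 RPM for WT, 19.1 for Het and 30.4, 15.1 and 12.9 for KO in testis and at 36.8 and 36.3 RPM for WT, 31.5 and 36.7 for Het and 37.1, 36.03 and 32.7 for KO in round spermatids. Its groups did not overlap, with KO replicate 1 the highest testis library, and the WT difference was 2.93 (SE 0.45, limma adjusted p = 0.00229). Summed over Adam24, Adam25, Adam20 and Adam39, the block was at 10.8 and 16.3 RPM in WT testis, 65.7 to 100.4 RPM in the other 4 testis libraries and 173 to 222 RPM in round spermatids.

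The second block on chromosome 8 was also higher in WT round spermatids. Adam26a, testase 3, was at 0.325 and 4.81 RPM for WT, 20.2 for Het and 11.3, 15.5 and 5.07 for KO in testis and at 34.1 and 31.9 RPM for WT, 32.4 and 50.2 for Het and 25.9, 43.4 and 30.02 for KO in round spermatids, with a WT difference of 3.61 (SE 0.69, limma adjusted p = 0.00692). Adam26b was at 5.37 and 9.69 RPM for WT, 5.28 for Het and 13.8, 6.51 and 4.43 for KO in testis. Its round spermatid values were 67.00 and 35.3 RPM for WT, 20.1 and 25.96 for Het and 32.4, 19.4 and 17.2 for KO, highest in WT, and the WT difference was 2.59 (SE 0.59, limma adjusted p = 0.0161). Adam34, testase 4, was at 1.08 and 1.65 RPM for WT, 10.4 for Het and 8.68, 9.73 and 8.99 for KO in testis and at 19.2 and 17.8 RPM for WT, 20.4 and 23.2 for Het and 15.4, 28.4 and 15.8 for KO in round spermatids. Its WT difference was 3.05 (SE 0.47, limma adjusted p = 0.00236), and all 3 genes were higher in every round spermatid library than in any testis library. Adam34l had no read in 3 of 6 testis libraries, both of WT among them, and was at 4.67 and 4.86 RPM for WT, 2.597 and 4.62 for Het and 4.21, 6.21 and 5.04 for KO in round spermatids. It passed in WT with 2.53 (SE 0.62, limma adjusted p = 0.0233). Its mean WT level in round spermatids was 27.01-fold the floor of 3 reads per library in WT testis. That floor covers counting error only, so the ratio is no firm bound. The fitted value of Adam34l depends on the added 1 RPM and is no bound either. How far its sequence is shared with close copies was not worked out.

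Other sperm ADAMs outside these blocks also passed in WT. Adam1a, the fertilin alpha gene whose protein acts in the endoplasmic reticulum, was at 21.3 and 10.3 RPM for WT, 81.2 for Het and 29.02, 54.4 and 53.9 for KO in testis and at 82.3 and 99.7 RPM for WT, 78.7 and 87.1 for Het and 85.9, 84.5 and 72.9 for KO in round spermatids. The Het testis library lay inside the round spermatid range, and the WT difference was 2.53 (SE 0.41, limma adjusted p = 0.00299). Adam21 was at 1.74 and 4.62 RPM for WT, 10.4 for Het and 1.36, 4.79 and 3.61 for KO in testis and at 17.9 and 17.5 RPM for WT, 19.9 and 15.6 for Het and 10.8, 16.9 and 7.24 for KO in round spermatids, with 2.25 (SE 0.62, limma adjusted p = 0.0396). Adam29 was at 8.08 and 9.95 RPM for WT, 18.5 for Het and 29.6, 14.6 and 7.73 for KO in testis and at 40.3 and 32.5 RPM for WT, 24.98 and 38.3 for Het and 35.1, 22.5 and 29.4 for KO in round spermatids, with 1.90 (SE 0.55, limma adjusted p = 0.0477). Adam21 and Adam29 were the 2 calls nearest the threshold. Leaving out testis WT replicate 1, or either WT round spermatid library, left 6 members called.

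**Figure D2:**
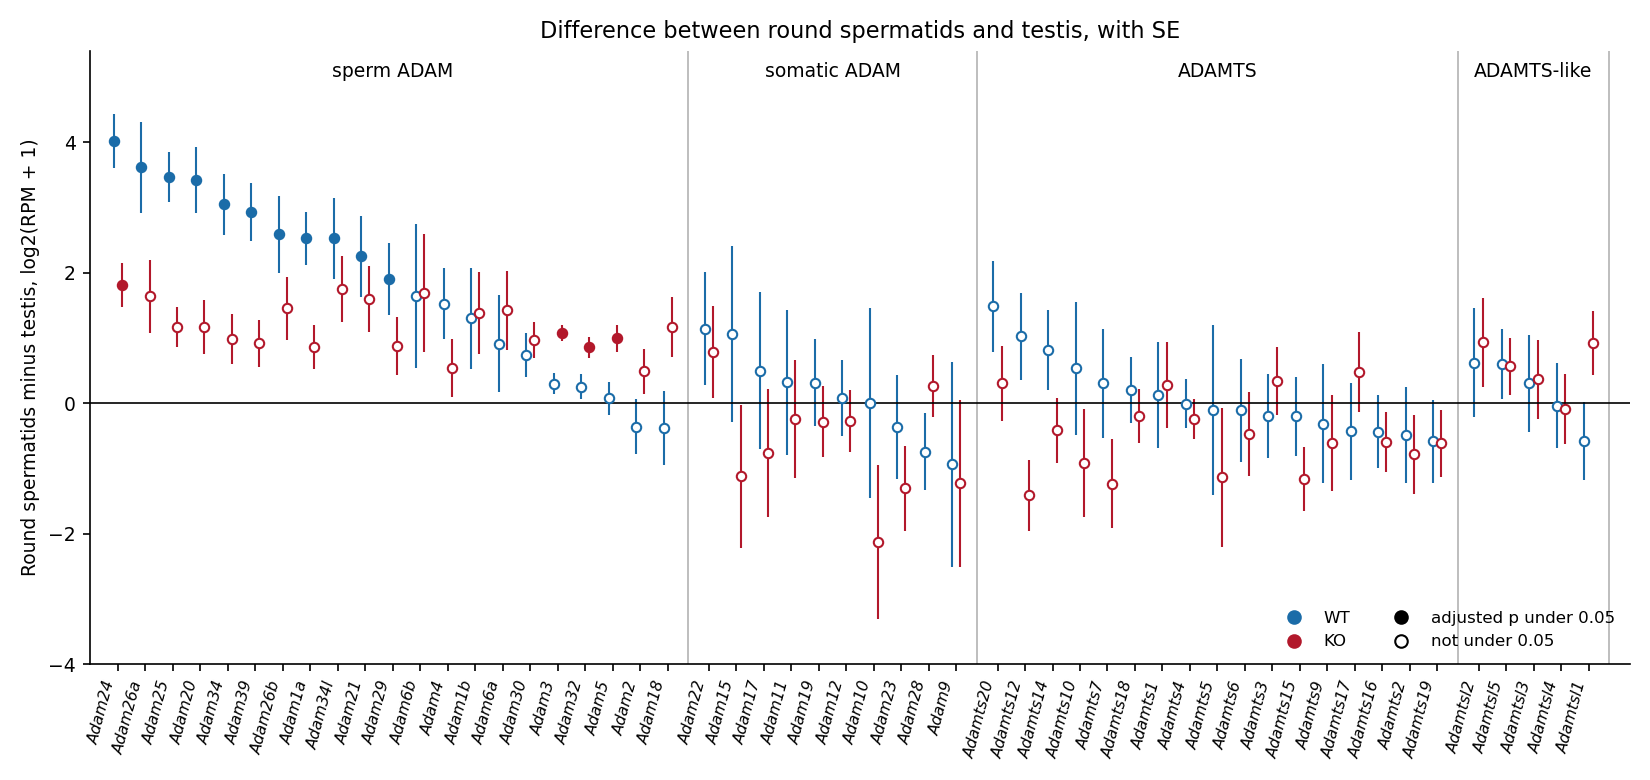
Difference between round spermatids and testis on the log2(RPM + 1) scale for the 53 genes tested, ordered within each role by the WT value. Points are limma estimates for WT (blue) and KO (red), lines their standard errors, and filled points have an adjusted p under 0.05. The 11 filled WT points and 4 filled KO points are all sperm ADAMs and lie above 0.

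The most abundant sperm ADAMs did not pass in WT. Adam3 was at 1389.8 and 1353 RPM for WT, 1186 for Het and 1166, 1068 and 1027 for KO in testis and at 1672 and 1711 RPM for WT, 2092 and 2235 for Het and 2282, 2179 and 2425 for KO in round spermatids. Every round spermatid value lay above every testis value, but the WT difference was 0.30 (SE 0.15, limma adjusted p = 0.263). Adam32 was at 1068 and 934 RPM for WT, 973 for Het and 714, 882 and 814 for KO in testis and at 1249 and 1135 RPM for WT, 1322 and 1591 for Het and 1365, 1357 and 1655 for KO in round spermatids, also without overlap, and its WT difference was 0.25 (SE 0.19, limma adjusted p = 0.491). Adam5 was at 2318 and 2069.6 RPM for WT, 2350.3 for Het and 1110.2, 1945 and 1819 for KO in testis and at 2432 and 2186 RPM for WT, 2931 and 3299 for Het and 2955, 2929 and 3608 for KO in round spermatids. The WT libraries overlapped, with a difference of 0.07 (SE 0.25, limma adjusted p = 0.924).

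In KO mice the same contrast passed for 4 of 21 sperm ADAMs, all higher in round spermatids, and for 0 of the other 32 genes. Of all genes, 0.936% were higher and 1.42% lower. The 4 were Adam3 with 1.08 (SE 0.13, limma adjusted p = 0.00678), Adam32 with 0.86 (SE 0.16, adjusted p = 0.0264), Adam5 with 0.996 (SE 0.20, adjusted p = 0.0339) and Adam24 with 1.81 (SE 0.34, adjusted p = 0.0273), all from limma. Adam24 was the 1 gene called in both genotypes. All 21 sperm ADAM differences were positive in KO, with a median of 1.17, beside -0.14 over all genes, -0.52 for 10 somatic ADAMs, -0.59 for 17 ADAMTS genes and 0.57 for 5 ADAMTS-like genes. These 4 calls come from a fit without pairing. Testis and round spermatid libraries with the same KO number deviated together, but pairs cannot be told from sets here. In a fit of the KO libraries alone 0 members passed, with or without a block for the replicate number. With that block 0 of all genes passed. The block in the fit of all 13 libraries left 4 members. There it joins same-numbered libraries of all genotypes, so it is no paired test of the KO libraries. Without testis KO replicate 1 the count was 21: 14 sperm ADAMs were higher (9.91% of all genes), and Adam9, Adam10, Adam15, Adam17, Adamts7, Adamts10 and Adamts15 were lower (30.3% of all genes). Without 9 other libraries in turn, among them each KO round spermatid library, the count was 1.

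Adam2 and Adam18, which did not pass in either genotype, were higher in set 2 than in set 1 in both cell types. Of all genes, 47.8% were higher in all set 2 than in all set 1 libraries in testis and 24.3% in round spermatids, and 11% and 12.3% were lower. Adam2 was at 796 and 673 RPM for WT, 1519.8 for Het and 499.6, 1370.2 and 1323 for KO in testis. The round spermatid values were 549.6 and 590.5 RPM for WT, 1437 and 1551 for Het and 998, 1470.0 and 1706 for KO, lowest in the WT libraries. Adam18, another sperm surface ADAM, was at 201 and 196 RPM for WT, 281 for Het and 51.9, 204 and 209.9 for KO in testis and at 179 and 129 RPM for WT, 284 and 314 for Het and 209, 387 and 319.6 for KO in round spermatids. Adam1b was at 21.1 and 34.1 RPM for WT, 99.6 for Het and 12.2, 87.9 and 87.1 for KO in testis and at 64.02 and 71.2 RPM for WT, 153 and 134 for Het and 74.3, 138 and 175 for KO in round spermatids, and in it too the Het libraries and KO replicates 2 and 3 were above the other libraries of each cell type.

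The remaining sperm ADAMs did not pass in either contrast. Adam30 was at 32.5 and 26.1 RPM for WT, 48.1 for Het and 36.2, 37.97 and 46.2 for KO in testis and at 56.1 and 43.1 RPM for WT, 69.7 and 90.5 for Het and 65.2, 75.3 and 100.4 for KO in round spermatids, with 0.73 (SE 0.33, limma adjusted p = 0.204) in WT and 0.97 (SE 0.27, adjusted p = 0.0817) in KO. Adam4 was at 5.098 and 3.74 RPM for WT, 9.79 for Het and 12.1, 13.1 and 6.08 for KO in testis and at 12.97 and 16.1 RPM for WT, 11.1 and 23.8 for Het and 18.6, 14.5 and 12.1 for KO in round spermatids. The pair Adam6a and Adam6b encodes forms of ADAM6, found in complexes with ADAM2 and ADAM3. Adam6a was at 11.1 and 2.98 RPM for WT, 20.9 for Het and 2.03, 12.9 and 6.902 for KO in testis and at 10.7 and 13.5 RPM for WT, 23.7 and 24.5 for Het and 22.7, 21.1 and 11.2 for KO in round spermatids. Adam6b was at 11.7 and 0.253 RPM for WT, 12.4 for Het and 0.542, 11.5 and 8.74 for KO in testis and at 15.4 and 8.44 RPM for WT, 12.2 and 18.6 for Het and 16.01, 20.9 and 15.6 for KO in round spermatids. Testis values of both overlapped the round spermatid values.

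**Figure D3:**
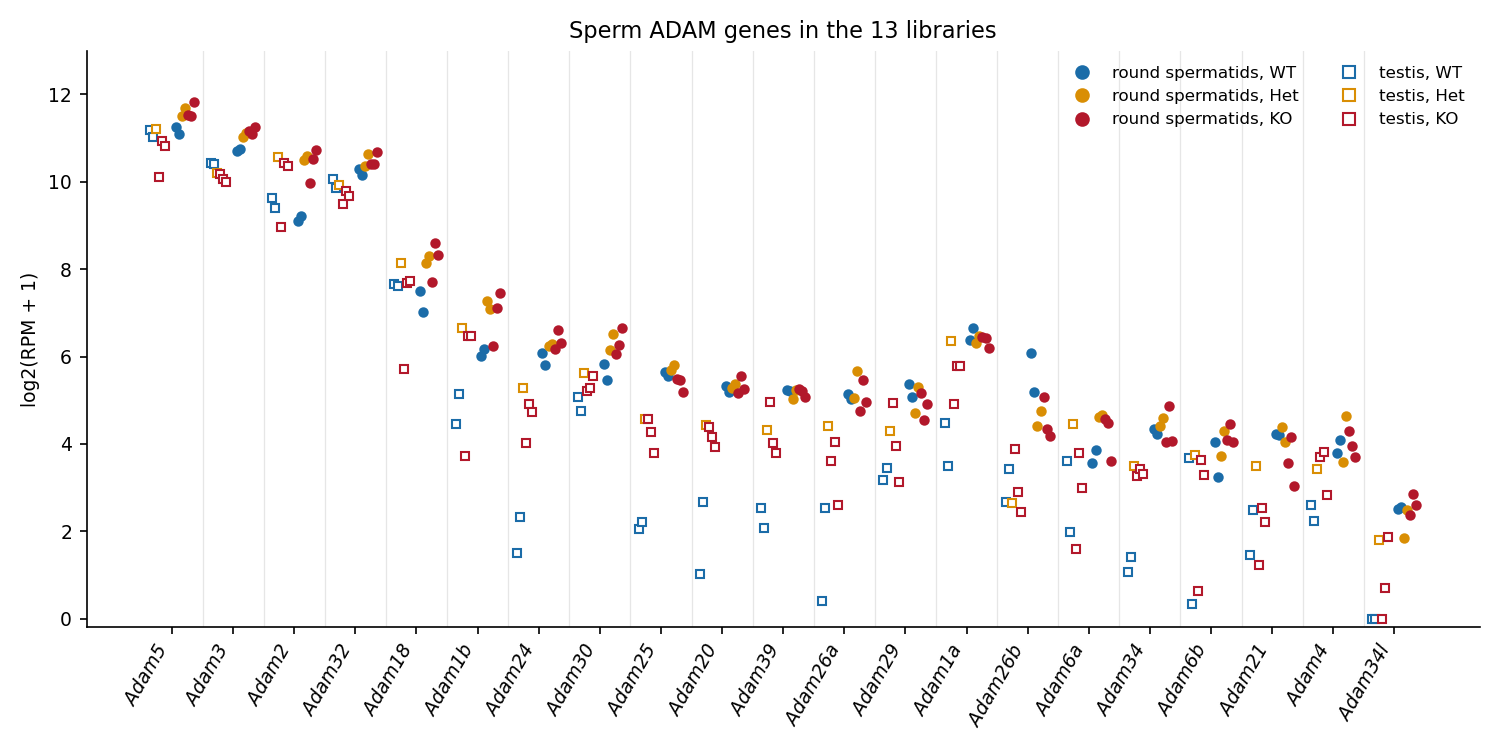
Level of each sperm ADAM gene as log2(RPM + 1) in every library, genes ordered by their median per kb in round spermatids with Adam34l last. Filled circles are round spermatid libraries and open squares testis libraries, coloured by genotype. For Adam24, Adam25, Adam20 and Adam39 the 2 WT testis squares lie below the 4 other testis squares, and for 9 genes all circles lie above all squares.

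Across all libraries regardless of genotype, 9 of 21 sperm ADAMs were higher in all 7 round spermatid libraries than in all 6 testis libraries, and 0 of the other 32 genes tested were. Of all genes tested, 4% were higher without overlap and 1.87% lower. The 9 were Adam3, Adam20, Adam24, Adam25, Adam26a, Adam26b, Adam32, Adam34 and Adam39. Within set 1 the count was 16 of 21 (20.5% of all genes) and within set 2 it was 14 of 21 (17% of all genes). No sperm ADAM was lower without overlap in either set or over all libraries. The median sperm ADAM difference was 1.90 in WT, 0.71 in Het, 1.13 in KO replicate 1 and 1.10 in KO replicates 2 and 3.

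The sperm ADAMs can also be grouped by exon number. In GENCODE M21, 14 have at most 4 exonic blocks, while Adam1a has 15 and Adam2, Adam3, Adam5, Adam18 and Adam32 have 20 to 23. In WT the 14 genes with few blocks had a median difference of 2.42, with 9 called, and the 6 with many had a median of 0.16, with 1 called, Adam1a. Annotated exons of Adam1a overlap those of Mapkapk5 and Gm42878 on the same strand, and 77.8% of its 50-base stretches occur in other genes. Its block number and its place in this division are therefore uncertain. In KO the medians were 1.28 with 1 called and 0.93 with 3 called. The difference between these groups of genes was not tested. Those with many blocks include Adam2, Adam3, Adam5, Adam18 and Adam32, the most abundant sperm ADAMs, so exon number and level cannot be told apart.

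A somatic gene borders the most abundant sperm ADAMs. On chromosome 8, Adam18, Adam3, Adam5, Adam32 and the somatic gene Adam9 follow each other on the minus strand from 24602246 to 25016927, with 806 bases between Adam32 and Adam9. Adam32 was at 1135 RPM or more in every round spermatid library and Adam9 at no more than 8.87 RPM. In testis, Adam32 was at 714 RPM or more and Adam9 between 0 and 50.9 RPM.

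The somatic ADAMs with the highest testis levels differed between the sets. Adam10, the sheddase that starts Notch signalling, was at 0.3796 and 1.77 RPM for WT, 76.4 for Het and 1.08, 68.9 and 46.98 for KO in testis. The round spermatid values were 0 and 2.84 RPM for WT, 8.92 and 8.04 for Het and 0.956, 2.87 and 10.2 for KO. The 3 high testis values, Het and KO replicates 2 and 3, were the libraries of set 2, and KO replicate 1 lay with WT. Adam17, which releases tumour necrosis factor and ligands of the EGF receptor, was at 1.79 and 0.507 RPM for WT, 38.8 for Het and 1.76, 37.2 and 42.7 for KO in testis and at 3.97 and 0.687 RPM for WT, 6.59 and 10.7 for Het and 3.58, 10.5 and 16.8 for KO in round spermatids. Adam9, a widely expressed sheddase, was at 1.95 and 5.57 RPM for WT, 50.9 for Het and 0, 32.3 and 36.98 for KO in testis and at 4.32 and 0 RPM for WT, 7.93 and 7.39 for Het and 0.573, 5.39 and 8.87 for KO in round spermatids. Adam15 was at 0.3796 and 2.53 RPM for WT, 25.1 for Het and 0, 24.2 and 22.2 for KO in testis and at 3.505 and 3.68 RPM for WT, 8.79 and 7.11 for Het and 0.526, 4.86 and 5.39 for KO in round spermatids. For these 4 genes, and for Adam11, Adam22 and Adam23, the testis values of set 2 all lay above those of set 1. That is 7 of 10 somatic ADAMs tested, 8 of 21 sperm ADAMs, 8 of 17 ADAMTS and 2 of 5 ADAMTS-like genes, beside 47.8% of all genes.

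The marker sums of every supporting cell type listed were also higher in set 2 testis. Leydig markers summed to 39.9 to 111 RPM in set 1 testis libraries and 519 to 745 RPM in set 2, with all 5 reaching 1 RPM in both sets. Germ cell lists split as well. Spermatogonium markers summed to 1.08 to 12.4 RPM in set 1 and 169 to 231 RPM in set 2, and spermatocyte markers to 957 to 1205 RPM and 1733 to 1850 RPM. Round spermatid markers were lower in set 2, at 344 to 450 RPM against 1094 to 3886 RPM. The part of these markers in the result was not tested. Within set 2, 5 of 10 somatic ADAMs (Adam9, Adam10, Adam11, Adam15 and Adam17) and 3 of 17 ADAMTS genes (Adamts9, Adamts10 and Adamts15) were lower in all 4 round spermatid than in all 3 testis libraries, while 37.6% of all genes were. Within set 1 it was 0 of 10 and 2 of 17, with 9.4% of all genes. The median somatic ADAM difference was 0.20 in WT and 0.63 in KO replicate 1, and -1.28 in Het and -1.33 in KO replicates 2 and 3.

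Other somatic ADAMs were lower or less regular. Adam22, a receptor of LGI proteins without protease activity, was at 3.31 and 6.21 RPM for WT, 17.8 for Het and 1.22, 15.7 and 13.7 for KO in testis and at 15.8 and 8.04 RPM for WT, 22.4 and 23.2 for Het and 8.697, 17.8 and 14.3 for KO in round spermatids. In testis its set 2 values were above those of set 1, and in round spermatids the sets overlapped. Adam11 was at 3.25 and 1.14 RPM for WT, 9.69 for Het and 0, 9.96 and 10.1 for KO in testis and at 4.44 and 1.62 RPM for WT, 3.93 and 2.77 for Het and 4.44, 0.879 and 6.18 for KO in round spermatids. Adam12, known from muscle and placenta, was at 5.86 and 5.95 RPM for WT, 12.00 for Het and 3.39, 4.71 and 9.44 for KO in testis and at 6.31 and 6.28 RPM for WT, 5.73 and 9.33 for Het and 2.91, 5.21 and 5.11 for KO in round spermatids, with no split by set. Adam23 was at 2.06 and 2.15 RPM for WT, 8.73 for Het and 2.03, 7.69 and 2.91 for KO in testis and at 3.68 and 0.245 RPM for WT, 4.196 and 2.22 for Het and 0, 1.11 and 2.27 for KO in round spermatids. Adam19 and Adam28 reached at most 4.98 and 3.99 RPM, and Adam7 and Adam8 at most 1.05 and 1.08 RPM.

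**Figure D4:**
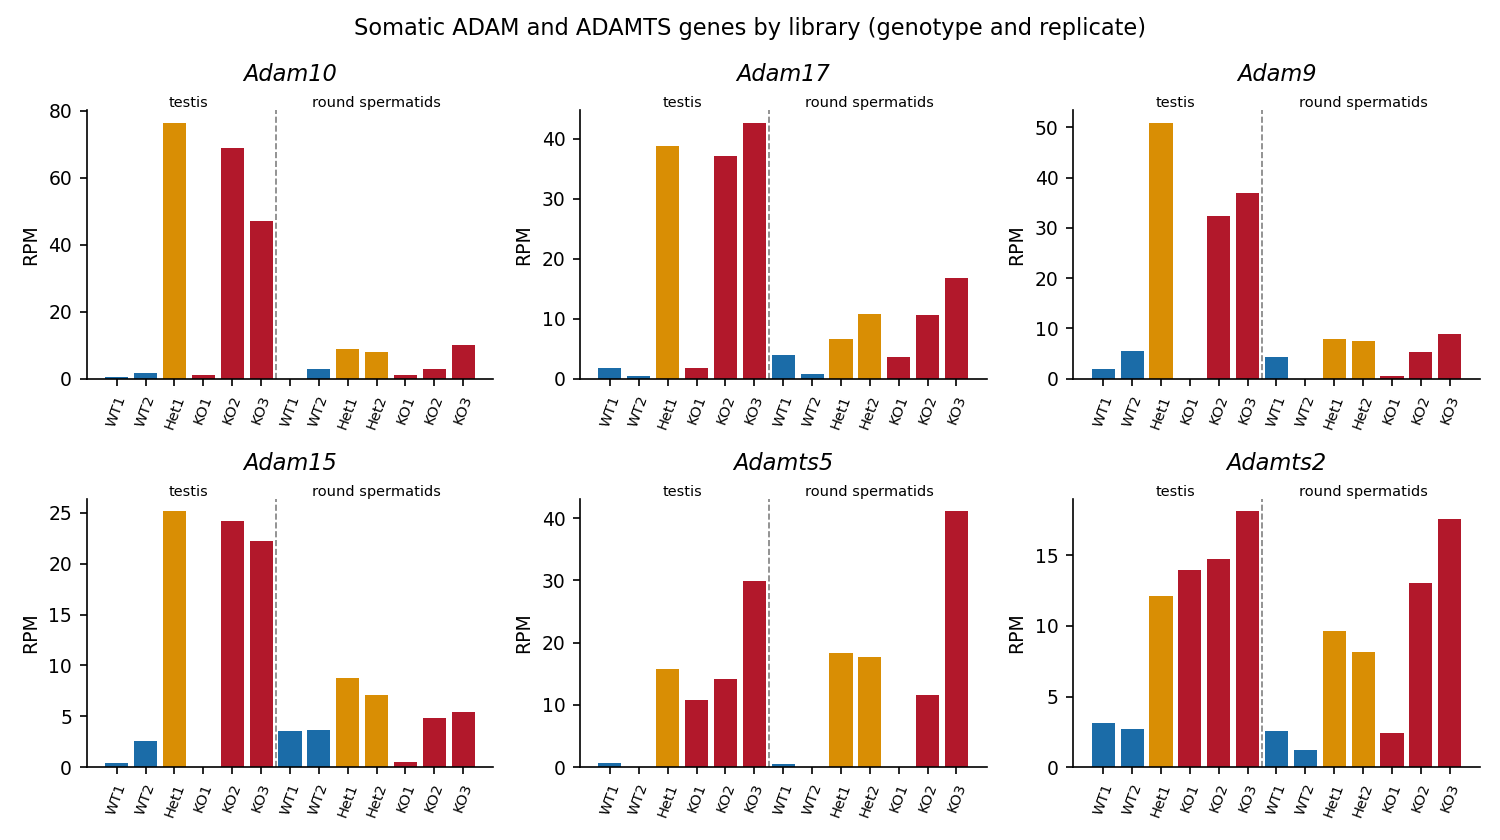
RPM of 4 somatic ADAM and 2 ADAMTS genes in each of the 13 libraries, bars coloured by genotype (blue WT, orange Het, red KO) and labelled with genotype and replicate. Testis is left and round spermatids right of the dashed line. Het and KO replicates 2 and 3 are high in testis for Adam10, Adam17, Adam9 and Adam15, and KO replicate 1 stands with WT there but not for Adamts5 or Adamts2.

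Adamts5, which cuts aggrecan and versican, was at 0.597 and 0.0634 RPM for WT, 15.7 for Het and 10.8, 14.1 and 29.9 for KO in testis and at 0.467 and 0 RPM for WT, 18.4 and 17.7 for Het and 0, 11.5 and 41.1 for KO in round spermatids. In sorted cells it was at or near 0 in the 3 libraries of set 1, where the 5 stromal markers summed to 5.495 to 12.7 RPM. Adamts2, a procollagen amino-terminal protease, was at 3.09 and 2.72 RPM for WT, 12.1 for Het and 13.97, 14.8 and 18.1 for KO in testis and at 2.57 and 1.18 RPM for WT, 9.66 and 8.13 for Het and 2.39, 13.1 and 17.6 for KO in round spermatids. In testis both genes were higher in all 3 KO libraries, and in Het, than in WT, as were 25.7% of all genes, while 12.6% were lower. The 5 stromal markers moved with them in testis, at a summed 15.2 and 11.8 RPM for WT, 354 for Het and 162, 376 and 540.3 for KO. Their part in the result was not tested. Adamts17, known for its part in fibrillin microfibrils, was at 4.12 and 17.1 RPM for WT, 12.5 for Het and 3.25, 10.6 and 11.97 for KO in testis and at 5.14 and 7.31 RPM for WT, 14.4 and 9.699 for Het and 7.17, 10.7 and 17.1 for KO in round spermatids. In testis the genotypes overlapped, and in round spermatids both WT values lay below both Het values and overlapped those of KO.

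Adamts12, which cuts cartilage oligomeric matrix protein, was at 0.434 and 0.887 RPM for WT, 4.61 for Het and 10.8, 3.69 and 7.35 for KO in testis and at 1.28 and 3.92 RPM for WT, 7.66 and 9.05 for Het and 0.764, 2.64 and 2.84 for KO in round spermatids. Adamts9, which cuts versican, was at 0.108 and 2.98 RPM for WT, 8.93 for Het and 0.814, 6.198 and 6.02 for KO in testis and at 0.993 and 0.441 RPM for WT, 2.46 and 1.76 for Het and 0.287, 4.98 and 2.34 for KO in round spermatids. Adamts6 was at 0.651 and 6.08 RPM for WT, 3.65 for Het and 5.42, 2.67 and 1.08 for KO in testis and at 3.33 and 1.32 RPM for WT, 3.33 and 7.21 for Het and 1.15, 1.41 and 2.56 for KO in round spermatids. Adamts7, related to Adamts12, was at 0.163 and 0.887 RPM for WT, 5.18 for Het and 1.76, 4.39 and 10.2 for KO in testis and at 1.402 and 0.392 RPM for WT, 2.46 and 6.097 for Het and 0, 1.76 and 3.69 for KO in round spermatids. The highest value of any of the 12 ADAMTS genes that did not reach a group mean of 5 RPM was 8.295 RPM, in Adamts10. Of ADAMTS-like genes, Adamtsl1 (punctin) was at 4.77 and 15.7 RPM for WT, 6.14 for Het and 4.47, 3.06 and 2.22 for KO in testis and at 4.73 and 6.52 RPM for WT, 12.6 and 10.7 for Het and 6.79, 6.33 and 7.59 for KO in round spermatids, and the other 4 reached at most 7.59 RPM.

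The study's main question was the effect of Wfdc15a loss. KO minus WT and Het minus WT share the WT libraries, so the values are given side by side. In testis 0 of 51 genes tested passed in either contrast with limma or with voom, and 0% of 18570 genes did (limma). At an unadjusted limma p under 0.05 there were 11 members (21.6%) in KO minus WT, all higher, beside 4380 genes in all (23.6%). In Het minus WT there were 9 (17.6%), all higher, beside 3674 genes (19.8%). The median over all genes tested was itself positive, at 0.63 in KO and 1.02 in Het. In round spermatids 0 of 51 passed with either tool, and 0% of 18075 genes (limma). At an unadjusted limma p under 0.05 there were 10 members (19.6%) in KO minus WT, 9 of them higher, beside 3813 genes (21.1%). In Het minus WT there were 14 (27.5%), 13 of them higher, beside 4542 genes (25.1%). The share of all genes by direction was not worked out at this threshold. WT libraries all lie in set 1 and Het libraries all in set 2, so Het against WT and the set cannot be told apart.

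In testis the member nearest the threshold was Adamts5, with KO minus WT of 3.76 (SE 0.78, limma adjusted p = 0.0717) and Het minus WT of 3.68 (SE 1.04, adjusted p = 0.181). Adam24 followed with 2.63 (SE 0.65, limma adjusted p = 0.0884) in KO and 3.35 (SE 0.87, adjusted p = 0.177) in Het, and Adam25 with 2.08 (SE 0.63, adjusted p = 0.125) in KO. Adam10 differed by 3.29 (SE 1.57, limma adjusted p = 0.264) and 5.31 (SE 2.102, adjusted p = 0.24), Adam17 by 3.02 (SE 1.33, adjusted p = 0.235) and 4.28 (SE 1.79, adjusted p = 0.254), and Adamts2 by 2.08 (SE 0.64, adjusted p = 0.128) and 1.75 (SE 0.86, adjusted p = 0.295). The median KO difference was 0.69 for sperm ADAMs (-0.25 with centred libraries), 1.30 for somatic ADAMs, 0.95 for ADAMTS and -0.38 for ADAMTS-like genes, beside 0.63 over all genes tested. The sperm ADAM median was 0.85 within set 1 (KO replicate 1 minus WT) and -0.39 within set 2 (KO replicates 2 and 3 minus Het). The somatic ADAM median was -0.65 and -0.26, and that of ADAMTS was 0.50 and 0.03. The filter was applied anew within each set, so these medians do not cover the same genes. In testis set 1 left out Adam15 and Adamts5, among others.

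In round spermatids the smallest adjusted p belonged to Adam2, with KO minus WT of 1.25 (SE 0.21, limma adjusted p = 0.121) and Het minus WT of 1.39 (SE 0.23, adjusted p = 0.0626). All 5 of its Het and KO values were above both WT values, as were those of 13.7% of all genes, while 12.9% had all 5 below. Adam18 differed by 0.96 (SE 0.26, limma adjusted p = 0.131) in KO and 0.97 (SE 0.29, adjusted p = 0.0909) in Het, and Adam1b by 0.84 (SE 0.32, adjusted p = 0.182) and 1.07 (SE 0.35, adjusted p = 0.106). Adam26b was the member with an unadjusted p under 0.05 and a lower level, at -1.10 (SE 0.37, limma adjusted p = 0.154) and -1.06 (SE 0.40, adjusted p = 0.144). Adam10 differed by 1.16 (SE 0.76, limma adjusted p = 0.39) in KO, Adam17 by 1.76 (SE 0.65, adjusted p = 0.178), Adamts5 by 2.74 (SE 1.18, adjusted p = 0.223) and Adamts2 by 1.78 (SE 0.67, adjusted p = 0.18). The median KO difference was 0.08 for sperm ADAMs, 0.19 for somatic ADAMs, 0.06 for ADAMTS (-0.04 with quantile-normalized libraries) and 0.26 for ADAMTS-like genes, beside 0.03 over all genes. Within sets 1 and 2 the somatic ADAM median was -0.34 and -0.44 and the ADAMTS median -0.56 and -0.46. Each of these fits applied the filter anew, so the medians do not cover the same genes. In round spermatids set 1 left out Adam9, Adam10 and Adamts5, among others.

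Within set 1 the KO arm is a single library, so its spread is not measured but assumed to equal that of the 2 WT libraries, and no p is given. In testis that library, KO replicate 1, also had the fewest reads (7375270) and the fewest genes with reads (15435, against 20115 or more in the other testis libraries). Under this assumption 8 of 35 members were past the limma threshold as higher and 5 as lower, beside 19.3% and 22.8% of all genes. The difference of KO replicate 1 from the WT mean was 2.67 for Adam39, 2.44 for Adam25, -1.91 for Adam18 and -0.98 for Adam5. In round spermatids 1 member, Adam2, was past it with a difference of 0.81, beside 0.238% of all genes higher and 1.03% lower. Within set 2, KO replicates 2 and 3 against Het, 0 members passed in either cell type, with 0.0057% of genes higher and 0.057% lower in testis and 0.00588% and 0.0176% in round spermatids.

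Without KO replicate 1 all remaining KO libraries lie in set 2 and all WT libraries in set 1, so KO and the set cannot be told apart. In testis 26 members then passed as higher in KO (51.2% of all genes) and 2, Adam3 and Adam5, as lower (14% of all genes). The higher ones were 9 of 21 sperm ADAMs (Adam1a, Adam1b, Adam2, Adam20, Adam24, Adam25, Adam34, Adam34l and Adam39), 7 of 13 somatic ADAMs (Adam9, Adam10, Adam11, Adam15, Adam17, Adam19 and Adam22), 9 of 19 ADAMTS genes and Adamtsl4. In round spermatids 15 passed as higher (19.5% of all genes), among them Adam2, Adam3, Adam5, Adam18, Adam32, Adam10, Adam17, Adamts2 and Adamts5, and Adam26b as lower (11.3% of all genes).

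The KO effect differed between cell types for 1 of 53 members, Adam25, at -2.30 (SE 0.49, limma adjusted p = 0.0405) for round spermatids minus testis. Of all genes, 1.84% had a lower and 0.294% a higher KO effect in round spermatids. KO minus WT for Adam25 was 2.08 in testis and -0.22 in round spermatids. Within set 1, KO replicate 1 minus WT for Adam25 was 2.44 in testis and -0.11 in round spermatids. Within set 2, KO replicates 2 and 3 minus Het was -0.55 in testis and -0.42 in round spermatids. Adam24 was next at -2.21 (SE 0.54, adjusted p = 0.0593) and Adam3 lay in the other direction at 0.78 (SE 0.20, adjusted p = 0.0681) (limma), neither past the threshold. The Adam25 call was lost with centred libraries (-1.47, limma adjusted p = 0.417), quantile-normalized libraries (-1.32, adjusted p = 0.357) and voom (-1.77, adjusted p = 0.209), and in 11 of the 13 fits that left out 1 library (-2.50 to -2.20). It held without the Het testis library or testis KO replicate 1.

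Genes that act with the sperm ADAMs were taken from a fixed list of 16 that holds chaperones, processing enzymes and surface partners. In WT 3 were higher and 2 lower in round spermatids (9.09% and 2.39% of all genes), and in KO 0 of 16 passed. The 5 are named because they passed. Clgn, the chaperone calmegin needed for the fertilin pair to form, was at 161 and 189 RPM for WT, 1046 for Het and 359, 1047 and 1037 for KO in testis and at 615 and 612 RPM for WT, 1392 and 1548 for Het and 724, 1421 and 1482 for KO in round spermatids, with 1.81 (SE 0.48, limma adjusted p = 0.0325) in WT. Pdilt, a testis protein disulfide isomerase required for ADAM3 folding, was at 25.1 and 21.5 RPM for WT, 141 for Het and 21.02, 138 and 101 for KO in testis and at 118 and 143 RPM for WT, 244 and 253 for Het and 146, 295 and 223 for KO in round spermatids, with 2.43 (SE 0.68, limma adjusted p = 0.0418). Ace, whose germ cell form is needed for ADAM3 to reach its place on sperm, had 1.33 (SE 0.36, limma adjusted p = 0.0335). The lower genes were Tex101, a surface protein required for ADAM3 on sperm, with -4.50 (SE 1.09, limma adjusted p = 0.0217), and its partner Ly6k with -1.88 (SE 0.35, limma adjusted p = 0.00606). Tex101 was at 254 and 213 RPM for WT, 449 for Het and 41.6, 445 and 472 for KO in testis and at 12.6 and 6.82 RPM for WT, 101 and 89.5 for Het and 19.2, 155 and 43.1 for KO in round spermatids.

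Of 8 tested regulators of ADAM10 and ADAM17, 1 was lower in WT round spermatids (2.39% of all genes were), the tetraspanin Tspan17 with -2.51 (SE 0.69, limma adjusted p = 0.0372). In KO 2 were lower (1.42% of all genes), Tspan17 with -2.91 (SE 0.56, limma adjusted p = 0.0287) and Rhbdf1, an inactive rhomboid that carries ADAM17 to the surface, with -2.31 (SE 0.49, limma adjusted p = 0.0387). Of 9 inhibitors and processing proteases, Timp2 was higher in WT (9.09% of all genes) with 1.20 (SE 0.25, limma adjusted p = 0.0118), and 0 passed in KO. Of 12 tested ADAMTS substrates and related matrix genes, 0 passed in either genotype. These substrates summed to 200.4 to 230.02 RPM in round spermatids of set 1 and to 521 to 1017 RPM in set 2. No gene of the 4 lists passed in KO minus WT or Het minus WT in either cell type.

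Reads of close copies may be divided between them, and the counting program is not given in the sources used here. Of the 50-base stretches in their transcripts, 34.7% in Adam20, 34.2% in Adam25 and 36.1% in Adam39 also occurred in another gene, mostly in each other. The share was 36.4% in Adam26a, 36.7% in Adam26b, 26.8% in Adam34, 17.4% in Adam4, 32.4% in Adam1b, 29.5% in Adam6a and 29.6% in Adam6b. In Adam1a it was 77.8%, shared with Mapkapk5, Gm42878 and Adam1b, so its values are uncertain. It was 0% in Adam24, Adam5, Adam32, Adam18, Adam29 and Adam10. The libraries do not record the strand, so reads of Adam17 and Iah1, of Adam15 and 4731419I09Rik, and of Adam3 and Gm45528, which overlap on opposite strands, cannot be told apart where they overlap.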

How the data were processed

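The deposited values are log2 reads-per-million (RPM) for each gene and library. Per the submitters' processing notes the authors ran HISAT2 2.1.0 (build mm10), Trim Galore 0.6.6 and FastQC 0.11.8, while the counting program and annotation remain unnamed, not given in the sources used here. RPM were recovered from these log2 values, and genes at the library minimum, which stands for 0.9 read, were set to 0. Between 99.70% and 99.996% of the values were whole reads within 0.01 read. Even numbers made up 60.7% to 63.5% of values from 2 to 50 reads. No library was left out.

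Tests required 1 RPM in 2 or more libraries of a fit and ran on log2(RPM + 1) in limma 3.58.1 (lmFit, eBayes with trend) in R 4.3.3. Tests were two-sided, with Benjamini-Hochberg adjustment over all genes and a threshold of 0.05. The fit was tested on simulated data and recovered 99% to 100% of 4-fold and 16-fold changes in 3 comparisons, with 13, 8 and 10 false calls in WT round spermatids minus testis, KO minus WT in testis and KO minus WT in round spermatids. The changed genes had a mean of at least 5 RPM, and all genes were given the same dispersion. The simulated libraries do not hold the split into 2 sets, which the KO groups span in every fit. This recovery therefore does not describe the fits of the deposited data. Contrasts across cell types used all 13 libraries, and genotype contrasts used 1 cell type. Pairing was checked by correlating deviations from group means: KO libraries of the 2 cell types with the same number gave 0.50, 0.28 and 0.40, and other groups gave -0.02 to 0.05. The KO groups of both cell types hold libraries of both sets, so this check cannot tell pairs from sets. Alternatives were other pseudocounts, filters, scalings, voom on recovered reads (TMM scaling), quality weights, a set covariate, the replicate block, fits of other libraries, and leaving out each library. The KO and WT fits of the 2 groups with a replicate block were added after the data were seen.

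The members, roles and lists were chosen with earlier results of these data known. All members could be named, with values in every library for those reaching a group mean of 5 RPM, and of each other list the most abundant genes or those a result turns on. Lengths, exons and shared 50-base stretches came from GENCODE M21, in which 57 of 58 genes had identical coordinates. Promoters came from RefSeq.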

Additional observations from a re-analysis of the deposited data

Results flagged for a closer look

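Adam25 (testase 2) was picked out because its KO effect differed between the cell types by the test of that difference, the interaction term of the fit of all 13 libraries. KO minus WT on the log2(RPM + 1) scale was lower in round spermatids than in testis by a difference of -2.30 (SE 0.49, limma adjusted p = 0.0405). It was the 1 call among 53 members, while 1.84% of all genes had a lower and 0.294% a higher KO effect in round spermatids. The count therefore does not set the members apart from other genes. In testis both WT libraries, at 3.15 and 3.61 RPM, lay below all 3 KO libraries, at 22.6, 18.2 and 12.9 RPM. They also lay below the Het library: the testis means on the log2(RPM + 1) scale were 2.13 in WT, 4.58 in Het and 4.21 in KO. In round spermatids the KO values of 43.8, 43.2 and 35.3 RPM lay below the WT values of 49.0 and 45.7 RPM. Within set 1, KO replicate 1 minus WT was 2.44 in testis and -0.11 in round spermatids. Within set 2, KO replicates 2 and 3 minus Het was -0.55 in testis and -0.42 in round spermatids. For Adam20, Adam24, Adam34 and Adam39 the KO effect differed between the cell types by -2.25, -2.21, -2.06 and -2.01. Their limma adjusted p values were 0.0988, 0.0593, 0.101 and 0.095. Adam25 shares 34.2% of its 50-base stretches with other genes, among them Adam20 and Adam39. The call was lost with centred libraries (limma adjusted p = 0.417), quantile-normalized libraries (0.357), voom (0.209), and in 11 of 13 fits that left out 1 library. Of the round spermatid and spermatocyte markers, only Acrv1, Spaca1 and Sycp1 were also lowest in the WT testis libraries. Acrv1 was at 74.4 and 60.5 RPM in WT and 126.01 to 162 RPM in the other testis libraries, Spaca1 at 37.1 and 36.4 against 90.3 to 184 RPM, and the spermatocyte gene Sycp1 at 14.9 and 19.96 against 221 to 299 RPM. In round spermatids WT and other libraries overlapped for Acrv1 and Sycp1, and Spaca1 was at 451 and 458 RPM in WT and 357 to 444 RPM elsewhere. The 6 round spermatid markers together, protamines included, went the other way in testis, at 3886 and 1749 RPM in WT and 344 to 1094 RPM elsewhere. Prm1, Prm2, Tnp1 and Tnp2 were each highest in the WT testis libraries. The 5 spermatocyte markers summed to 1093 and 1205 RPM in WT and 957 to 1849.6 RPM elsewhere. Among them Spag6l was highest in WT testis, at 769 and 725 RPM against 374 to 524 RPM. For Sycp3, Hormad1 and Pou5f2, KO replicate 1 lay below at least 1 WT testis value. These germ cell markers thus went in different directions. Their part in the result was not tested.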

How the results depend on the processing

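Members called, by setting, were as follows, and causes were not tested. For most settings, quality weights and the set covariate among them, the share of all genes called was not worked out. Those counts therefore do not set the members apart from other genes. Round spermatids minus testis in WT (11) gave 7 with centred libraries and 18 with the set as a covariate. The range was 6 (without testis WT replicate 1 or either WT round spermatid library) to 13 when leaving out each library. In KO (4) voom gave 7, quality weights 29, the set covariate 18, and a fit of the 2 groups 0, also with the replicate block, with 1 to 21 when leaving out each library. The difference of KO effects (1) gave 2 with a pseudocount of 0.1 RPM, 2 with no filter, 4 with a mean of at least 5 RPM, 2 with voom, 17 with weights, 14 with the set covariate and 0 with centred or quantile-normalized libraries. It ranged from 0 to 12 when leaving out each library, with 12 reached without testis KO replicate 1, and 0 without testis WT replicate 1 or any of 9 other libraries.

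KO minus WT in testis (0) gave 30 with weights, 16 with the set covariate, 9 in a fit of all 13 libraries, and 0 to 28 when leaving out each library. The 28 were reached without KO replicate 1, where 51.2% of all genes were higher and 14% lower. Het minus WT in testis (0) gave 31 with weights, 6 with the set covariate, 1 with the replicate block, 7 in the fit of all 13 libraries and 0 to 29 when leaving out each library, again highest without KO replicate 1. Without the only Het testis library it cannot be computed. In round spermatids KO minus WT (0) gave 15 with weights, 1 with the set covariate and 0 to 16 when leaving out each library. At the 16, without KO replicate 1, 19.5% of all genes were higher and 11.3% lower. Het minus WT (0) gave 1 centred, 2 quantile-normalized, 15 with weights, 4 with the replicate block and 0 to 14 when leaving out each library, both counts highest without KO replicate 1. Outside the KO libraries of the 2 cell types, groups share replicate numbers only, and same-numbered libraries did not deviate together.

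Medians of KO minus WT in testis were negative within the sets for somatic ADAMs (-0.65 and -0.26) and within set 2 for sperm ADAMs (-0.39). The genes that passed the filter differed between these fits and the main one. Directions turned for Adam10 in KO minus WT, at -0.42 in testis and -0.53 in round spermatids within set 2 and -0.0038 in round spermatids with the set covariate. With that covariate Adamts5 in round spermatids turned to -0.28 in KO and -0.55 in Het, and Adamts2 to -0.43 in Het. Fewer than 3 reads, 0.143 to 0.407 RPM, cannot be told from absence.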
